A study of Mus musculus with 12 samples.

Results

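Aminoacyl-tRNA synthetases are the enzymes that join each amino acid to its transfer RNA, and 36 genes that encode them were followed here in mouse regulatory T cells. They were chosen by gene symbol and compartment from the 24502 genes of the table, and all 36 were found and had enough counts to be tested. The list was proposed after fold changes of these same libraries had been seen, so the counts of members called and their adjusted p-values describe these genes and are not an independent test of them. By compartment, 18 genes serve the cytosol, 16 serve mitochondria, and Gars and Kars serve both. Tarsl2, another cytosolic threonyl enzyme, is in the table but not among the 36.

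RNA was measured in cells labelled Treg from 11-week-old mice in 4 groups of 3 libraries, 12 in all. Control cells came from mice whose strain is given only as WT, and deficient cells from Foxp3CreGpx4fl/fl mice. In the second strain, Cre recombinase driven by Foxp3, the gene that defines regulatory T cells, deletes a loxP-flanked Gpx4, which encodes a glutathione peroxidase that reduces lipid hydroperoxides. The labels do not say whether the control mice carried Cre. Cells of each genotype were either unstimulated or held for 4 h on plates coated with antibodies to CD3 and CD28 (5 µg/ml), which mimic antigen and costimulation. How long unstimulated cells were kept in culture is not stated, so effects of the antibodies and of culture cannot be told apart. They also do not say whether the libraries of a group came from separate mice, and the p-values then measure only the spread between these libraries.

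Each synthetase recognises a single amino acid, with few exceptions such as Eprs, which joins both glutamate and proline. The cytosolic and mitochondrial sets are both encoded in the nucleus, mostly by separate genes, and the mitochondrial enzymes charge the transfer RNAs that read the small mitochondrial genome. Several cytosolic enzymes sit in a multi-synthetase complex held together by scaffold proteins. Many cytosolic synthetase genes are known targets of ATF4, a transcription factor made when amino acids run short, and T cell activation is known to raise protein synthesis together with amino acid uptake.

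Library totals ran from 24629230 to 31879267 counts. Gpx4 had 141.9 to 172.1 CPM (counts scaled to library size) in unstimulated and 69.2 to 107.5 CPM in stimulated wild-type libraries. In deficient libraries it had 4.96 to 12.3 CPM and 3.34 to 9.23 CPM. All 7 Treg markers were detected in every group, with summed levels of 2999 to 3200.1 CPM without and 6359 to 7603 CPM with stimulation. They did not all rise: in each genotype 5 had a positive and 2 a negative log2 fold change on stimulation. The 2 were Cd4 (729.7 to 820.5 CPM without and 237.3 to 399.1 CPM with it) and Cd3e (585.4 to 767.3 and 309.5 to 593.0 CPM). Foxp3 itself was at 20.6 to 36.7 CPM without stimulation and 33.7 to 75.9 CPM with it. The share of counts from genes of the mitochondrial genome was 1.18% to 1.39% in wild-type libraries, 1.72% to 1.94% in unstimulated deficient and 2.84% to 3.72% in stimulated deficient libraries. Summed neutrophil markers were 47.2 to 170.6 CPM in unstimulated wild-type and 1.30 to 8.08 CPM in unstimulated deficient libraries, and overlapped with stimulation. In stimulated cells the sums of 3 other marker lists were higher in deficient than in wild-type libraries without overlap: plasma cell (492.6 to 548.2 against 361.9 to 411.6 CPM), monocyte and macrophage (65.2 to 89.9 against 25.9 to 63.2 CPM) and erythroid markers (25.0 to 26.4 against 5.01 to 13.0 CPM). Single markers mostly did not follow: 2 of 4 tested plasma cell, 0 of 5 monocyte and macrophage and 1 of 4 erythroid markers were higher without overlap. Over all 14827 tested genes 1229 were. Most of the plasma cell sum was Xbp1 (403.2 to 414.0 against 336.7 to 391.8 CPM). Jchain, another plasma cell marker, was at 85.3 to 131.5 against 15.8 to 25.2 CPM, a larger relative difference, also without overlap. Monocyte and macrophage markers were at 134.3 to 244.9 CPM in unstimulated wild-type libraries, above the stimulated ones. The part of these cell types in the results was not tested. The identifiers of the wild-type and deficient libraries fall in 2 separate ranges, so any library batch and the genotype cannot be told apart.

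Before stimulation, cytosolic synthetase transcripts were more abundant per length than mitochondrial ones. Levels were set against the longest coding transcript of each gene, as CPM per kb. In unstimulated wild-type cells the median over the 18 cytosolic genes was 47.2 CPM per kb, from 16.9 for Cars (cysteinyl) to 111.8 for Vars (valyl). Over the 16 mitochondrial genes it was 14.1, from 1.24 for Mars2 (methionyl), whose annotated transcript is unusually long, to 113.6 for Lars2 (leucyl). Lars2 thus stood beside Vars at the top of the order, with 113.6 ± 9.23 against 111.8 ± 14.9 CPM per kb (SD, n = 3), a difference within the spread between libraries. The next mitochondrial gene was Tars2 (threonyl) at 39.0 ± 4.41 CPM per kb. Gars (glycyl) and Kars (lysyl), which serve both compartments, had 72.7 ± 5.67 and 67.3 ± 7.65 CPM per kb.

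Stimulation raised most cytosolic synthetase genes, and few mitochondrial ones passed the test in either direction. In wild-type cells 13 of 18 cytosolic genes rose and none fell, with a median log2 fold change of 1.74 over the class. A gene was called at a Benjamini-Hochberg adjusted p under 0.05 in the edgeR quasi-likelihood test over all 14827 tested genes, and every adjusted p below is from that test unless another tool is named. Over all tested genes 6.12% were called higher and 5.41% lower in this comparison, and the median log2 fold change was -0.04. Stimulated and unstimulated libraries that do not overlap were common. Of the 14827 tested genes, 2943 were higher and 3281 lower without overlap in wild-type cells, and 1920 and 2499 in deficient cells. Gars and Kars rose as well, with log2 fold changes of 2.42 and 0.76. Of the 16 mitochondrial genes none rose, 1 fell (Cars2) and 15 were not called, with a median of 0.14. Under limma-voom that median was -0.09. In bulk RNA, fewer transcripts per cell and fewer cells carrying them cannot be told apart.

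**Figure D1:**
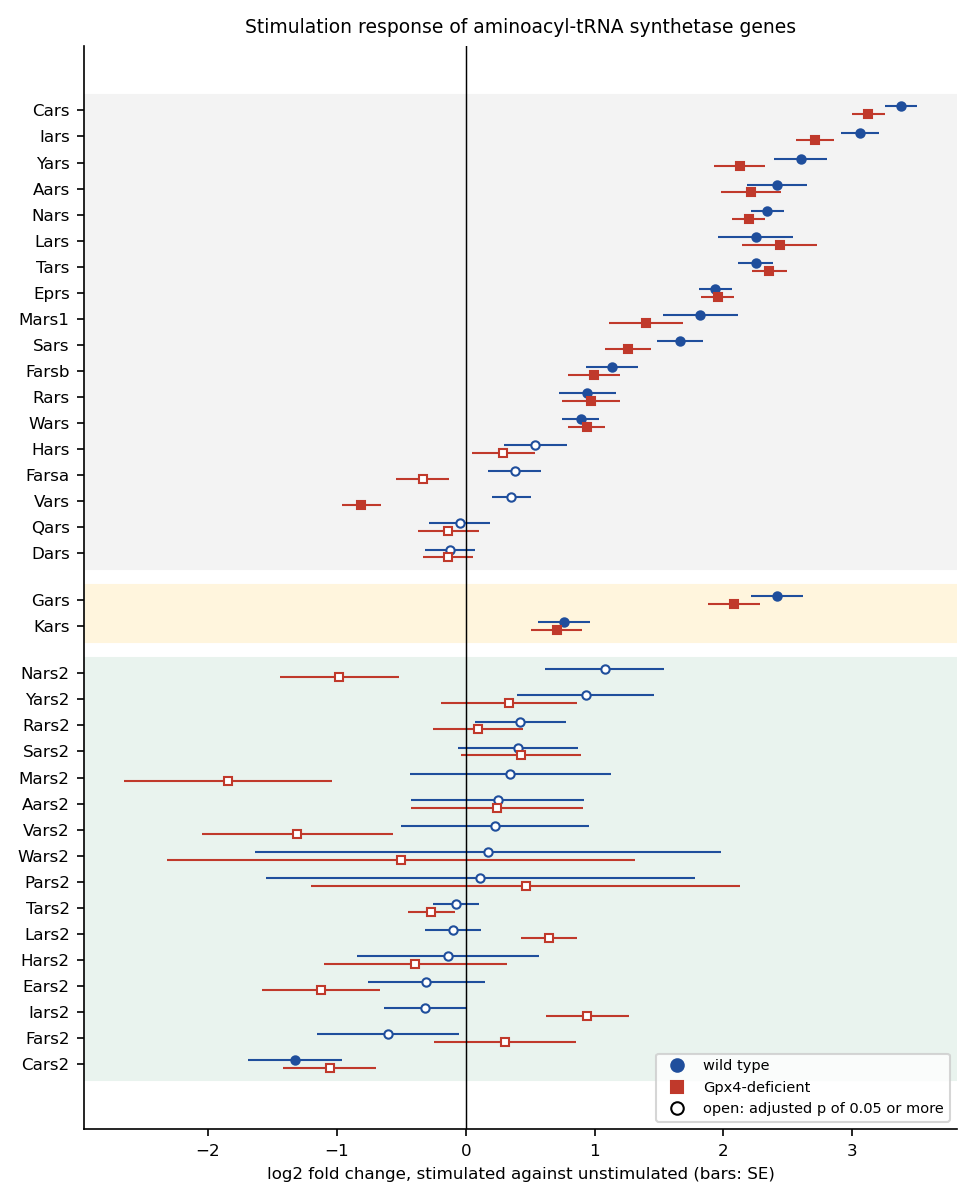
Log2 fold change of each synthetase gene, stimulated against unstimulated (horizontal axis, bars are SE), in wild-type (circles) and Gpx4-deficient cells (squares). Filled symbols have an adjusted p under 0.05, and the shaded bands from top to bottom are the 18 cytosolic genes, Gars and Kars, and the 16 mitochondrial genes. The upper band lies mostly right of 0 with filled symbols, and Cars2 in wild-type cells is the only filled symbol of the lowest band.

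Cars, which charges cysteine transfer RNA, had the largest response of the 36 genes. Its level was 59.0, 55.8 and 48.9 CPM in unstimulated and 570.2, 550.8 and 581.4 CPM in stimulated wild-type libraries. All 3 stimulated libraries lay far above all unstimulated ones, 10.4-fold on average (log2 3.38, SE 0.13, adjusted p = 2.19e-08). In deficient cells it went from 57.4, 56.8 and 53.8 to 438.0, 478.1 and 551.6 CPM, again without overlap (log2 3.13, SE 0.13, adjusted p = 3.17e-08). Cars lies on chromosome 7 from 143557230 to 143600090 (GRCm38, minus strand).

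Iars, the isoleucyl enzyme (chromosome 13, 49682100 to 49734267, plus strand), followed. Wild-type libraries had 102.4, 89.3 and 110.5 CPM without and 968.2, 855.3 and 694.6 CPM with stimulation, and the groups did not overlap. The log2 fold change was 3.06 (SE 0.15, adjusted p = 1.22e-07). In deficient cells, levels of 117.0, 91.2 and 98.6 CPM became 680.5, 651.4 and 676.9 CPM, a log2 fold change of 2.71 (adjusted p = 2.77e-07). Iars shares 17.7% of its 31-base words with other annotated genes, almost all with Gm4849, which was under 0.45 CPM in every library.

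Nars, which charges asparagine transfer RNA, had the highest level per length of the cytosolic class after stimulation, 415.4 CPM per kb in wild-type cells. Its libraries went from 237.9, 211.4 and 226.5 to 1209.97, 1132.3 and 1078.5 CPM in wild-type cells. In deficient cells they went from 169.4, 214.5 and 218.9 to 943.0, 801.5 and 1014.6 CPM. The groups did not overlap in either genotype, and the log2 fold changes were 2.34 (SE 0.13, adjusted p = 3.10e-07) and 2.20 (SE 0.13, adjusted p = 4.43e-07).

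Tars, the main threonyl enzyme, was at 147.3, 159.2 and 116.9 CPM in unstimulated and 706.6, 651.2 and 656.7 CPM in stimulated wild-type libraries. Deficient libraries were at 143.9, 119.6 and 138.5 and then at 754.1, 628.9 and 676.3 CPM. Its stimulated levels overlapped between the 2 genotypes, with means of 671.5 ± 30.5 and 686.4 ± 63.2 CPM (SD, n = 3). Its log2 fold changes were 2.25 in wild-type (adjusted p = 5.56e-07) and 2.36 in deficient cells (adjusted p = 4.43e-07).

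The 9 other cytosolic genes that rose in wild-type cells had log2 fold changes between 0.89 (Wars, tryptophanyl) and 2.60 (Yars, tyrosyl). Aars (alanyl) and Lars (leucyl) changed by 2.42 and 2.25, Eprs by 1.94, Mars1 (methionyl) by 1.82 and Sars (seryl) by 1.67. Farsb, the β subunit of the phenylalanyl enzyme, and Rars (arginyl) rose less, by 1.14 and 0.95. The Rars call rested on few libraries: leaving out unstimulated replicate 1 or 2 or stimulated replicate 1 or 3 took its adjusted p to between 0.05202 and 0.06990.

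The 5 cytosolic genes that were not called in wild-type cells were Vars, Hars (histidyl), Farsa, Qars (glutaminyl) and Dars (aspartyl), with log2 fold changes of 0.35, 0.54, 0.38, -0.05 and -0.12. Dars had the lowest change of the class, with 146.5, 151.9 and 121.8 CPM before and 133.9, 110.8 and 142.0 CPM after stimulation, overlapping ranges (adjusted p = 0.8227). Its deficient libraries overlapped too, at 114.6, 81.2 and 137.4 and at 100.4, 104.9 and 98.1 CPM. Farsa and Farsb form a single enzyme of 2 kinds of subunit. Their responses in wild-type cells were 0.38 (adjusted p = 0.3061) and 1.14 (adjusted p = 0.002612).

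The genes of both compartments differed in size of response. Gars was at 184.2, 176.9 and 158.0 CPM in unstimulated and 1030.2, 870.8 and 867.6 CPM in stimulated wild-type libraries (log2 fold change 2.42, SE 0.20, adjusted p = 9.28e-06). In deficient cells it went from 175.1, 142.2 and 148.4 to 866.7, 657.8 and 450.8 CPM, with the stimulated libraries spread widely but all above the unstimulated ones (2.08, adjusted p = 2.78e-05). Kars changed less, from 160.9, 152.4 and 128.6 to 249.0, 260.3 and 240.1 CPM in wild-type cells (0.76, SE 0.20, adjusted p = 0.02751). In deficient cells 100.4, 120.7 and 164.9 CPM became 241.6, 162.6 and 225.3 CPM, so the ranges overlapped by a single library (0.71, adjusted p = 0.03296). The Kars call in wild-type cells was lost without any 1 of its 6 libraries (adjusted p from 0.05232 to 0.1003), and in deficient cells without any 1 of 4 libraries, unstimulated replicates 1 and 2 and stimulated replicates 1 and 3 (0.06698 to 0.08109).

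In Gpx4-deficient cells 13 cytosolic genes rose and 1 fell, with a class median of 1.33, where 7.45% of all tested genes were called higher and 7.83% lower (median -0.02). Gars and Kars rose again, and no mitochondrial gene was called by edgeR (median -0.09, and -0.64 under limma-voom, where the median of all genes was -0.26). DESeq2 and limma-voom each called 3 mitochondrial genes there, Lars2 and Iars2 higher and Cars2 lower. The 15 genes called higher were the same 15 in both genotypes, 13 of them cytosolic. The gene that fell was Vars, described with the genotype comparison.

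Among the mitochondrial enzymes, Cars2, the partner of Cars, moved against it. Its wild-type libraries were at 45.6, 50.6 and 34.1 CPM without and 18.4, 15.1 and 18.5 CPM with stimulation, with no overlap (log2 fold change -1.33, SE 0.36, adjusted p = 0.03536). That call was lost without any 1 of the 6 libraries (adjusted p from 0.05854 to 0.1429). Deficient libraries were at 35.6, 38.8 and 43.7 and then at 29.0, 16.2 and 11.5 CPM, again without overlap (-1.06, adjusted p = 0.07233).

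Nars2 (asparaginyl) showed opposite shifts in the 2 genotypes. It was at 14.0, 20.8 and 9.61 CPM before and 24.0, 41.8 and 28.0 CPM after stimulation in wild-type cells, every stimulated library being higher (log2 fold change 1.08, SE 0.46, adjusted p = 0.1813). In deficient cells it was at 31.3, 27.5 and 17.96 and then at 16.2, 15.3 and 7.50 CPM, every stimulated library being lower (-0.98, SE 0.46, adjusted p = 0.1782). Neither change was called.

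Yars2 (tyrosyl) was at 18.9, 20.1 and 13.7 and then at 41.3, 32.6 and 26.7 CPM in wild-type cells, a change that was not called (0.93, adjusted p = 0.3411). Its stimulated deficient libraries ranged from 8.22 to 51.6 CPM, beyond the 19.3 to 28.9 CPM of the unstimulated ones on both sides. Iars2 (isoleucyl) was at 118.8, 72.7 and 81.4 and at 92.5, 69.0 and 58.1 CPM in wild-type cells, and at 29.4, 51.5 and 72.1 and at 88.6, 91.4 and 114.1 CPM in deficient cells. Its stimulated deficient libraries all exceeded the unstimulated ones (0.94, SE 0.32, adjusted p = 0.07032). Mars2 stayed between 7.99 and 23.1 CPM in wild-type libraries and was at 22.2, 17.4 and 15.4 and then at 9.34, 5.40 and 0.57 CPM in deficient ones (-1.85, SE 0.81, adjusted p = 0.1509).

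**Figure D2:**
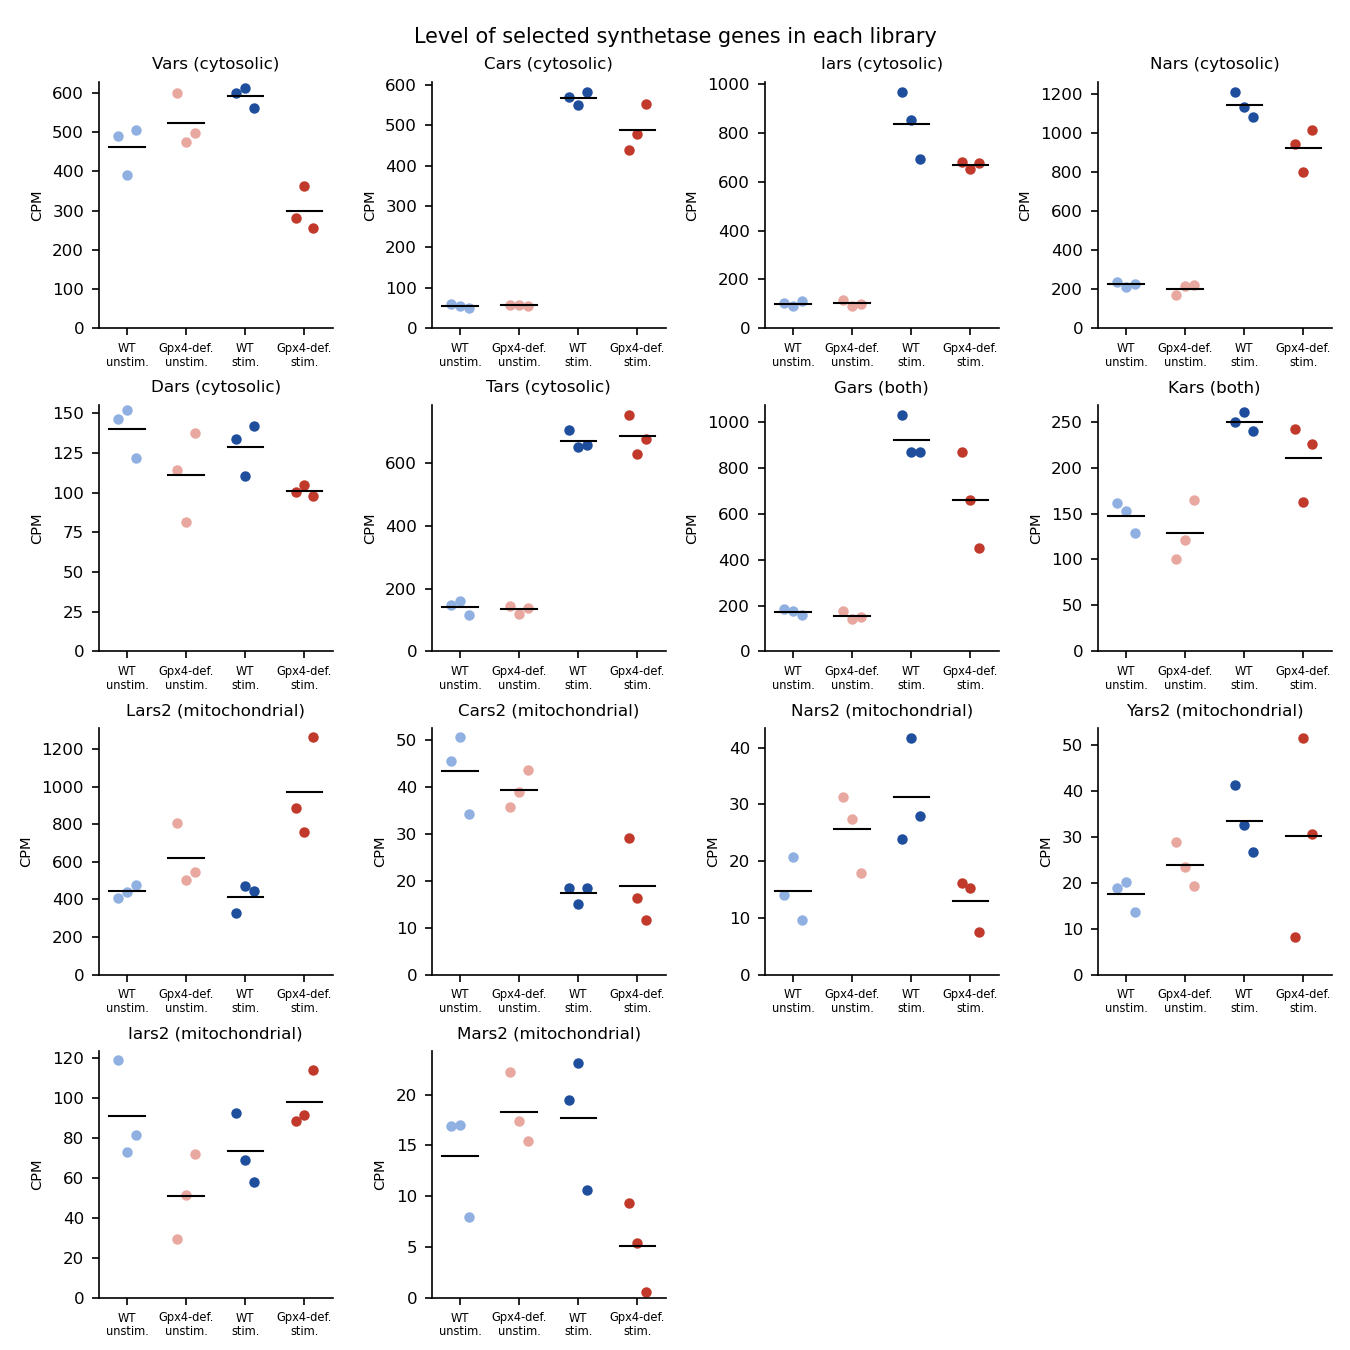
Level of 14 synthetase genes in each of the 12 libraries (vertical axes, CPM from 0, each panel with its own range), by group. Points are libraries and lines are group means. Cars, Iars, Nars, Tars and Gars are separated by stimulation in both genotypes, and Vars is lowest in the stimulated Gpx4-deficient libraries (255.4 to 361.6 CPM). The mean of Lars2 is highest there (759.3 to 1264.7 CPM), though unstimulated Gpx4-deficient replicate 1 reaches 805.7 CPM.

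Cytosolic and mitochondrial enzymes for the same amino acid were also set side by side. The 36 genes hold 13 pairs in which each enzyme is a single gene for a single amino acid. By signed log2 fold change the cytosolic gene was higher in 13 of 13 pairs in wild-type and in 13 of 13 in deficient cells. The median difference was 1.47 in wild-type and 1.79 in deficient cells. Higher here does not mean a larger change. In deficient cells the mitochondrial gene moved further, downward, for Vars2 (-1.31, against -0.81 for Vars), Mars2 (-1.85 against 1.40) and Hars2 (-0.39 against 0.29). The smallest difference in wild-type cells was 0.13, for Vars and Vars2, and the largest was 4.70, for Cars and Cars2. These differences are given as a description without a test. The pairs leave out Eprs with Ears2 and Pars2, because Eprs serves 2 amino acids, and the phenylalanyl enzymes, because the cytosolic one has 2 subunits. Eprs had a higher log2 fold change than Ears2 and Pars2 in both genotypes (1.94 against -0.31 and 0.11 in wild-type, 1.96 against -1.13 and 0.47 in deficient cells). The phenylalanyl genes did not all follow that order: in deficient cells Farsa had -0.34, below the 0.31 of Fars2, while Farsb had 1.00.

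Summed over the class, the 18 cytosolic genes made up 2629 to 2867 CPM in unstimulated and 8455 to 9358 CPM in stimulated wild-type libraries, a ratio of means of 3.22. In deficient cells they made up 2470.4 to 2582 and 6613 to 7091 CPM, a ratio of 2.74. The sum of the 15 mitochondrial genes other than Lars2 had ratios of 0.99 and 0.92. Lars2 alone was 34.4% to 48.5% of the mitochondrial sum in wild-type libraries and up to 71.0% in stimulated deficient ones, so it is kept apart.

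Genes that rose were found both inside and outside the multi-synthetase complex. Of its 8 synthetases (Dars, Eprs, Iars, Kars, Lars, Mars1, Qars and Rars) 6 rose in wild-type cells, with a median log2 fold change of 1.38. Of the 12 enzymes outside it 9 rose, with a median of 1.96, where 6.12% of all tested genes rose. Among its scaffold proteins, Eef1e1 rose by 2.08 (SE 0.19, adjusted p = 1.84e-05) and Aimp2 by 1.35 (SE 0.21, adjusted p = 0.001147). Aimp1 was not called, at a log2 value of 0.07 (SE 0.33, adjusted p = 0.9506). In deficient cells Eef1e1 and Aimp2 rose again, by 1.53 and 1.07.

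Because ATF4 and the related C/EBP proteins bind a composite DNA element, and MYC binds the E-box, the promoters of the synthetase genes were searched for both. The windows were 250 bases before to 50 after the RefSeq start (GRCm38.p6), available for 27 of the 36 genes and 27025 genes in all. Cars, Hars, Lars, Nars, Rars, Vars, Wars, Hars2 and Pars2 had no entry. The composite element was searched as TGATGNAAT on both strands, and the E-box as CACGTG, which reads the same on both strands. The element was present in 1.08% of all promoters. It was found in the promoters of Iars and Gars, both of which rose in both genotypes, and in none of the 14 mitochondrial genes with an entry. Most genes that rose and had an entry had no match, Eprs, Tars and Kars among them. These 2 sites are shown because both genes were among those that rose. Each is on the opposite strand, printed here on the gene's strand with the element in capitals, at chr13:49682126-49682154 and chr6:55037960-55037988, both plus strand.
Iars: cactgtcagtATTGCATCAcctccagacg
Gars: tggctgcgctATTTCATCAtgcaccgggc

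In Iars the variable base of the element gives TGATGCAAT, a form present in 0.222% of all promoters, whereas Gars has another base there. The element of Gars began 31 bases before the start, and that of Iars 6 bases after it. A match is a description of the letters and not evidence of binding, which was not measured. The E-box was in 8.09% of all promoters and in 5 of the 27. Aars, Farsb, Iars and Tars, which rose, had it, 4 of the 10 genes that rose and had an entry. So did Ears2 (mitochondrial glutamyl), which did not rise (log2 fold change -0.31, adjusted p = 0.8008). The 5 sites, shown for comparison of their flanks, lie at chr8:111033686-111033711 (plus strand), chr1:78488921-78488946 (minus strand), chr13:49682051-49682076 (plus strand), chr15:11399624-11399649 (minus strand) and chr7:122067050-122067075 (minus strand), with the E-box in capitals.
Aars: tcaaccctgtCACGTGacactccatg
Farsb: agacaggcatCACGTGagacagccca
Iars: ccaatcgccaCACGTGttgtttgtag
Tars: cgcctgtggcCACGTGgcgcacgcgc
Ears2: cgaaggagccCACGTGtgtgtttcta

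Genes of the ATF4 pathway other than synthetases changed in the same comparison. Atf4 itself was at 107.6, 105.4 and 116.4 CPM in unstimulated and 285.4, 259.1 and 295.8 CPM in stimulated wild-type libraries (log2 fold change 1.35, SE 0.15, adjusted p = 7.71e-05). In deficient cells it went from 120.5, 156.0 and 134.7 to 204.9, 182.9 and 246.3 CPM (0.63, SE 0.15, adjusted p = 0.01339). Of the 26 tested genes of the list, 17 rose and 1 fell in each genotype, with medians of 2.26 and 2.06. Over all tested genes 6.12% rose and 5.41% fell in wild-type cells, and 7.45% and 7.83% in deficient cells. Slc7a5 and Slc3a2, the light and heavy chains of a large neutral amino acid transporter, rose by 3.71 and 2.25 in wild-type cells. Shmt2, a mitochondrial serine hydroxymethyltransferase, rose by 2.65. The gene that fell was Ppp1r15a, a phosphatase subunit that restores translation. Myc rose by 2.31 (SE 0.11, adjusted p = 1.22e-07) and 2.32 (SE 0.11, adjusted p = 1.41e-07) in the 2 genotypes.

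Genes of other steps of tRNA use were counted in the same way. On stimulation 6.12% of all tested genes were called higher and 5.41% lower in wild-type cells. In deficient cells these shares were 7.45% and 7.83%. Of 14 tRNA maturation genes 2 rose in wild-type cells, Trnt1, which adds the terminal CCA (1.43, adjusted p = 0.005107), and Rpp38, a protein of the RNase P and MRP complexes (1.83, adjusted p = 0.04829). In deficient cells 4 rose and 1 fell. Of 8 cytosolic elongation and termination factors 2 rose in wild-type cells, Eif5a by 0.83 and Etf1 by 1.46, and in deficient cells 3 rose and 2 fell. None of 9 mitochondrial translation factors was called in either genotype. None of the 7 genes for selenocysteine incorporation, the step needed to make GPX4 protein, was called in any of the 5 tests. In lists this short, 0 calls is close to the shares of all tested genes and sets neither list apart. The 1 tRNA maturation gene that fell is close to that share too. Dtd1, which removes D-amino acids from tRNA, fell in deficient cells (-2.23, SE 0.42, adjusted p = 0.003804) and was not called in wild-type cells (adjusted p = 0.1603). The difference of those responses was not called either (adjusted p = 0.5768).

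Without stimulation no synthetase gene differed between genotypes past the threshold. Of the 36 genes 0 were called, where 0.0540% of all tested genes were called higher and 0.0135% lower. The cytosolic median was -0.16, with 14 of 18 genes at a negative log2 fold change, and the mitochondrial median was -0.06 (9 of 16 negative). All deficient libraries of Iars2 were below the wild-type ones (-0.84, SE 0.32, adjusted p = 0.7879). It was the only gene of the 36 with that pattern, which 9.89% of all tested genes showed.

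With stimulation, most cytosolic synthetase genes had a negative fold change in deficient cells, and Vars was the only one of them called. In that comparison 1.03% of all tested genes were called higher and 1.25% lower. Among the 18 cytosolic genes 1 fell, 0 rose and 17 had a negative log2 fold change, with a median of -0.33 against 0.00 over all tested genes. With RLE size factors the number was 16 of 18 and the median -0.28. Under limma-voom the cytosolic median was -0.33, where that of all genes was -0.21. All 3 deficient libraries were below all 3 wild-type libraries for 10 of the 18 cytosolic genes, 1 of the 2 genes of both compartments and 3 of the 16 mitochondrial genes, 14 of 36 in all, where 11.9% of all tested genes showed this. The summed level of the cytosolic class in deficient cells was 92.6% of the wild-type mean without and 78.8% with stimulation. For the 15 mitochondrial genes other than Lars2 these shares were 93.2% and 86.7%.

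**Figure D3:**
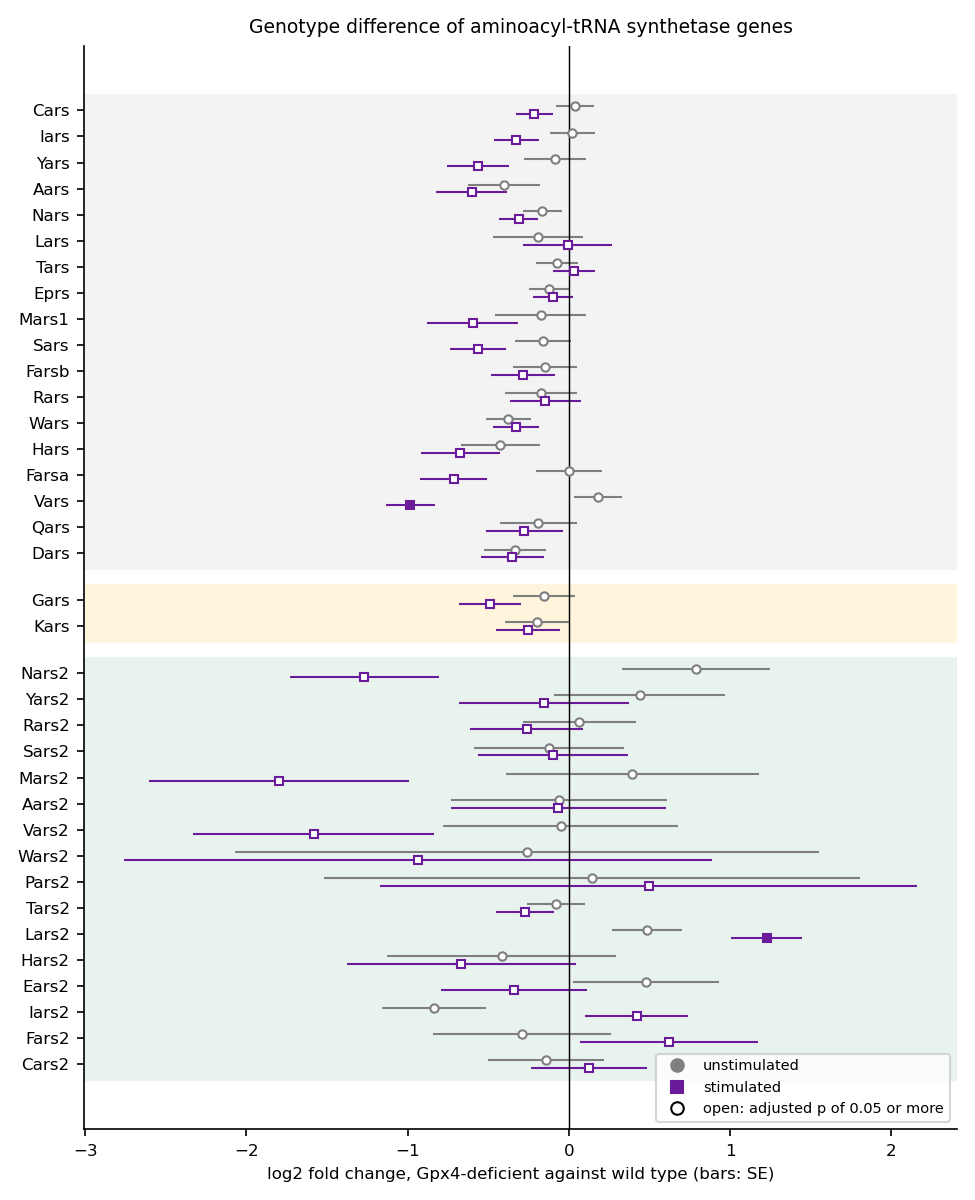
Log2 fold change of each synthetase gene, Gpx4-deficient against wild type (horizontal axis, bars are SE), in unstimulated (circles) and stimulated cells (squares), in the same order and bands as in the plot of stimulation responses. Filled symbols have an adjusted p under 0.05. The only filled symbols are stimulated Vars (-0.98) and stimulated Lars2 (1.23), and 17 of 18 squares of the cytosolic band lie left of 0.

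Vars encodes the valyl enzyme and lies on chromosome 17 from 35000987 to 35016322 (plus strand). It was at 491.3, 391.7 and 504.4 CPM in unstimulated and 598.9, 611.4 and 562.8 CPM in stimulated wild-type libraries, and at 600.2, 476.1 and 497.2 and then 281.0, 361.6 and 255.4 CPM in deficient ones. The 3 stimulated deficient libraries were the lowest of all 12. Against stimulated wild-type cells the log2 fold change was -0.98 (SE 0.15, adjusted p = 0.006911), a mean of 299.3 ± 55.4 against 591.1 ± 25.2 CPM (SD, n = 3). Within deficient cells Vars fell on stimulation (log2 -0.81, SE 0.15, adjusted p = 0.003309), and within wild-type cells the change was 0.35 (SE 0.15, adjusted p = 0.1736). The genotype call was lost without stimulated wild-type replicate 2 (-0.89, adjusted p = 0.05037) and when only the 2 stimulated groups were fitted (-0.97, adjusted p = 0.1103).

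Lars2, the mitochondrial leucyl enzyme, was the only member that was higher in stimulated deficient cells by the test. It lies on chromosome 9 from 123366927 to 123462666 (plus strand). It was at 407.0, 441.4 and 478.9 CPM in unstimulated and 327.9, 469.5 and 444.7 CPM in stimulated wild-type libraries, and at 805.7, 503.7 and 547.2 and then 885.7, 759.3 and 1264.7 CPM in deficient ones. Every deficient library was above every wild-type library in both states. The log2 fold change with stimulation was 1.23 (SE 0.22, adjusted p = 0.01590), and without it 0.48 (SE 0.22, adjusted p = 0.8609). The stimulated call was lost without stimulated wild-type replicate 1 (1.10, adjusted p = 0.06802) and when only the 2 stimulated groups were fitted (1.23, adjusted p = 0.1327).

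The stimulated deficient libraries, where Lars2 was high, also held more of other RNAs. The share of counts from mitochondrial genes was highest there (2.84% to 3.72%). Transcripts of mt-Rnr2, the large ribosomal RNA of mitochondria, were at 2594.0 to 4447.5 CPM there against 896.5 to 1290.5 CPM in stimulated wild-type libraries. Rn7sk, a small nuclear RNA without a poly(A) tail, was at 12.8 to 20.9 against 4.80 to 6.03 CPM. Their part in the Lars2 difference was not tested. The longest coding transcript of Lars2 shares no word of 16 bases with the 37 annotated transcripts of the mitochondrial genome on either strand. It shares 1.09% of its 31-base words with other annotated genes, AA474408 and Gm15564 among them, which were at 0 to 18.4 CPM and 0 to 1.43 CPM. Sequences of cytosolic ribosomal RNA were not searched, so whether reads from ribosomal RNA are counted on Lars2, in its level or in its difference, was not tested.

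**Figure D4:**
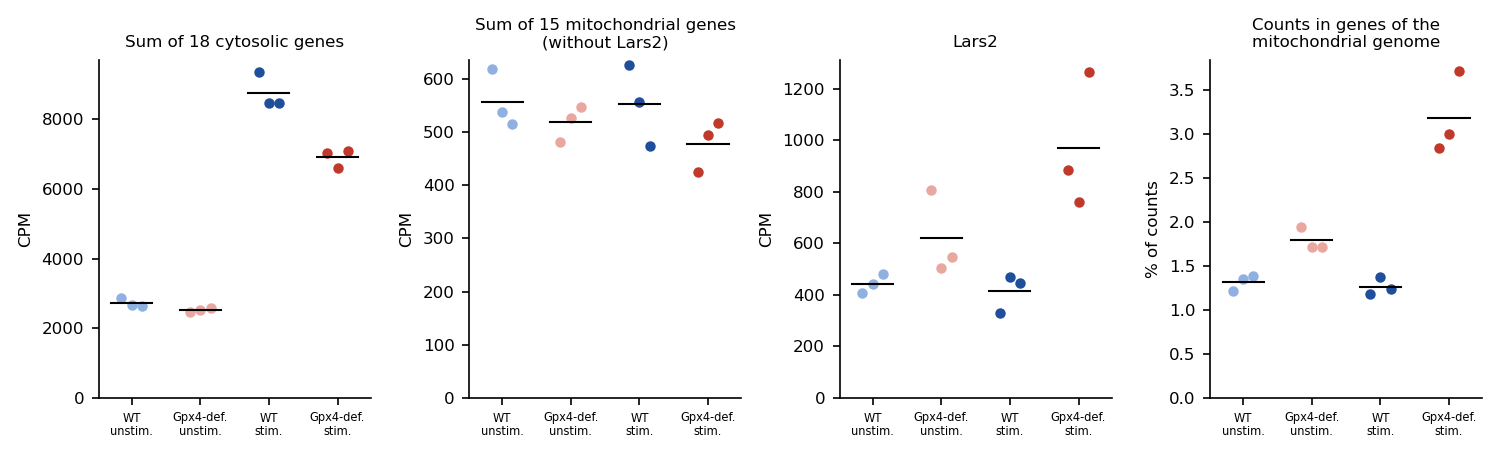
Summed level of the 18 cytosolic genes, of the 15 mitochondrial genes without Lars2, the level of Lars2 (CPM), and the share of counts from genes of the mitochondrial genome (%), in each of the 12 libraries by group. Points are libraries, lines are group means, and all axes start at 0. The cytosolic sum is at 8455 to 9358 CPM in stimulated wild-type and 6613 to 7091 CPM in stimulated Gpx4-deficient libraries. The second panel overlaps in all groups. The means of Lars2 and of the mitochondrial share are both highest in stimulated Gpx4-deficient libraries, where Lars2 overlaps the unstimulated Gpx4-deficient ones.

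Among the other cytosolic genes the lower levels in stimulated deficient cells were of modest size. Farsa was at 225.2, 174.9 and 134.2 CPM in wild-type and 101.4, 117.2 and 106.9 CPM in deficient libraries, with no overlap (-0.72, SE 0.21, adjusted p = 0.1044). Sars was at 667.6, 568.9 and 601.6 against 497.6, 406.7 and 338.0 CPM (-0.57, SE 0.17, adjusted p = 0.1246). Aars was at 799.6, 668.2 and 860.9 against 543.6, 529.1 and 460.5 CPM (-0.60, SE 0.22, adjusted p = 0.1846). Each of these 3 genes was called by another tool: Farsa by DESeq2 (adjusted p = 0.02974), Aars by limma-voom (adjusted p = 0.03902) and Sars by both (adjusted p = 0.04359 and 0.04481). Lars and Tars stood at the other end, with log2 fold changes of -0.01 and 0.03. Gars and Kars had -0.49 (adjusted p = 0.2146) and -0.25 (adjusted p = 0.5643). In data simulated for this comparison over 14198 genes, 11 of 100 genes changed 2-fold and 43 of 100 genes changed 4-fold were recovered. No share was taken at the levels of the cytosolic class, so these shares cannot be carried over to it.

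The ATF4 pathway genes had a similar median difference, -0.37 over 26 tested genes, of which 2 fell, where 1.25% of all tested genes fell. Such a median was not particular to them. It was -0.30 over 8 cytosolic elongation and termination factors, of which 2 fell. Over 3 scaffold proteins it was -0.44 and over 14 tRNA maturation genes -0.29, and none of these fell by the test. Mitochondrial translation factors had -0.01 and selenocysteine incorporation genes 0.10. Phgdh, the first enzyme of serine synthesis, was at 1573.9, 1211.9 and 1265.8 CPM in stimulated wild-type and 589.7, 643.5 and 603.4 CPM in stimulated deficient libraries (-1.14, SE 0.16, adjusted p = 0.004730). Shmt2 was at 1237.6, 1168.2 and 1134.0 against 822.7, 765.0 and 679.4 CPM (-0.64, SE 0.11, adjusted p = 0.01492). The difference in Atf4 was -0.41 (SE 0.15, adjusted p = 0.1776), with all deficient libraries lower. Myc differed by -0.03 (SE 0.11, adjusted p = 0.9369), with overlapping libraries.

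The responses of the 2 genotypes were compared by the interaction, the deficient response minus the wild-type response on the log2 scale. No synthetase gene was called, where 0.0270% of all tested genes were called higher and 0.175% lower. Vars had the smallest adjusted p of the members (-1.16, SE 0.21, adjusted p = 0.05646 by edgeR), and was called without stimulated deficient replicate 2 (adjusted p = 0.01290). DESeq2 called Vars (adjusted p = 1.41e-04), and limma-voom called none of the tested genes. The cytosolic median was -0.17 (13 of 18 negative) and the mitochondrial median -0.22 (10 of 16 negative).

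Mitochondrial synthetase genes varied most between libraries in stimulated deficient cells. The median SD of log2(CPM + 1) over the 16 genes was 0.29 and 0.32 in unstimulated and stimulated wild-type groups and 0.42 and 0.73 in the deficient ones. Over the 7615 tested genes of the same range of mean level it was 0.25, 0.31, 0.37 and 0.66, so this spread was close to that of other genes at such levels. For the cytosolic class it was 0.20, 0.13, 0.26 and 0.24. Pars2 (prolyl) was at 0.22, 0 and 66.6 CPM in the 3 stimulated deficient libraries and Wars2 (tryptophanyl) at 0.04, 14.3 and 0 CPM, so their fold changes rest on single libraries. Vars2 was at 1.19, 21.4 and 18.6 CPM there against 44.2, 52.9 and 26.4 CPM in stimulated wild-type libraries, without overlap (-1.58, SE 0.75, adjusted p = 0.2884).

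The other mitochondrial genes, Aars2, Fars2, Hars2, Rars2, Sars2 and Tars2, were not called in any comparison. Tars2 stayed between 84.4 and 138.1 CPM in all 12 libraries, Rars2 (arginyl) between 18.9 and 36.7 CPM, and Hars2 (histidyl) ranged from 3.52 to 61.4 CPM. Hars and Hars2 overlap by 195 exonic bases on opposite strands, 22.9% of the exonic bases of Iars2 overlap Rab3gap2 on the opposite strand, and 5.8% of those of Cars2 overlap Naxd. Whether the counting used strand is not given in the sources used here. Aars shares 22.7% of its 31-base words with Exosc6, which lies in its annotated exons on the same strand and was at 0 CPM in 10 of the 12 libraries and at 4.89 and 6.03 CPM in the others.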

How the data were processed

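Stranded poly(A) libraries were quantified by the authors, who deposited RSEM expected counts per gene symbol. The submitters' processing notes name the build GRCm38. The aligner, annotation and versions were not given in the sources used here. Between 14.8% and 18.1% of values per library were not whole, and counts were rounded before testing. All 12 libraries entered a single edgeR 4.0.16 fit in R 4.3.3 (quasi-likelihood, robust, TMM scaling, genes kept by filterByExpr) of the 4 group means, leaving 8 residual degrees of freedom. Fold changes are log2, with SE from the F statistic. The test was tried on simulated data first. Alternatives were RLE, upper-quartile or no scaling, other filters, DESeq2 1.42.0, limma-voom (limma 3.58.1), fits of only the groups compared, replicate blocks and leaving out each library. The members and gene lists were chosen with earlier results of these data known. Values in every library are given for members called in a genotype comparison, for the 3 of each class with the smallest p and the lowest fold change in each stimulation comparison, and for Gars and Kars; Farsa, Sars, Aars, Pars2, Wars2 and Vars2 were added after their values were seen. Same-numbered libraries did not deviate together (correlations -0.06 to 0.03 over the 18 same-numbered pairs). The replicate numbers were therefore not taken as pairs in the main fit. The titles reuse the same numbers in the unstimulated and stimulated groups of a genotype. Whether those libraries share mice is not stated, and such correlations cannot exclude it. Coordinates are from GENCODE M21 and promoters from RefSeq; the promoter sites given are not a full list, since 1 result is not reported here. Mars1 is named Mars in that annotation.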

Additional observations from a re-analysis of the deposited data

Results flagged for a closer look

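Vars and Nars2 went in opposite directions on stimulation in the 2 genotypes, without overlap between libraries in either. Of all 14827 tested genes, 2943 were higher without overlap in wild-type and 2499 lower in deficient cells. How many showed both was not counted. The difference of the responses was tested by the interaction. For Vars it was -1.16 (edgeR adjusted p = 0.05646), and over leave-outs of each library the adjusted p ran from 0.01290 to 0.2651. For Nars2 it was -2.06 (edgeR adjusted p = 0.3894), with 0.2277 to 0.7193 over the same leave-outs. Neither was called. Nars2 was at 7.50 to 41.8 CPM in all 12 libraries.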

How the results depend on the processing

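The number of cytosolic genes called on stimulation stayed within 1.5 times the reported number under every alternative run, and no called result reversed. Several of the other counts, which are 0 or 1, did not. Those between unstimulated genotypes stayed at 0, as did the mitochondrial count of the interaction. In wild-type stimulation the 1 mitochondrial call became 0 with no filter, with the replicate block and with the block within genotype, and 2 when only the groups compared were fitted. In deficient stimulation the 0 mitochondrial calls became 3 by DESeq2, 3 by limma-voom, 3 at an adjusted p under 0.1, 1 with the block within genotype and 2 without stimulated deficient replicate 3 and unstimulated deficient replicate 1, a choice made after seeing the data. Between genotypes with stimulation the 1 cytosolic call became 3 by DESeq2, 3 by limma-voom and 0 when only the groups compared were fitted. The 1 mitochondrial call there became 0 when only the groups compared were fitted, 0 without Lars2 and 2 without those 2 libraries. The 0 cytosolic interaction calls became 1 with a filter of 5 CPM in 3 libraries, 1 by DESeq2 and 1 at an adjusted p under 0.1. The causes were not tested.

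Leaving out each library in turn gave 12 to 13 cytosolic and 0 mitochondrial calls in wild-type stimulation, 14 and 0 to 3 in deficient stimulation, 0 and 0 between unstimulated genotypes, 0 to 1 and 0 to 2 between stimulated genotypes, and 0 to 1 and 0 for the interaction. Calls in deficient stimulation and between stimulated genotypes were gained by Pars2 without stimulated deficient replicate 3 (adjusted p = 0.003784 and 0.01945) and by Wars2 without replicate 2 of that group (adjusted p = 0.01542 and 0.03874). In deficient stimulation calls were also gained by Ears2 (0.02324) and Lars2 (0.03969) without that same library, by Lars2 without unstimulated replicate 1 (0.02204), by Iars2 without unstimulated replicate 3 (0.02771) and by Cars2 without stimulated replicate 1 (0.01232). DESeq2 and limma-voom called Lars2 (0.01764 and 0.04971), Iars2 (0.02070 and 0.03739) and Cars2 (0.01904 and 0.04074) there. The fall of Vars in deficient cells had an adjusted p of 0.05132 without the 2 libraries named above. Limma-voom moved the median of all genes to -0.26 in deficient stimulation and to -0.21 between stimulated genotypes. Whether replicate numbers pair the libraries is not stated. With the replicate block the wild-type Kars and Cars2 calls were lost (adjusted p = 0.05261 and 0.06128), as was Kars in deficient cells (0.05968). Between stimulated genotypes 152 genes were called higher and 185 lower, against 712 and 820 by DESeq2 and 17 and 5 when only those groups were fitted. DESeq2 also called more between unstimulated genotypes (101 higher and 82 lower, against 8 and 2) and for the interaction (135 and 250, against 4 and 26).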
